A study of Homo sapiens with 4 samples.

Results

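The 10 genes described here encode TRAIL, its receptors and the proteins of the death-inducing signalling complex, chosen by name and role from the 57905 genes counted in each sample, by a rule that used no measured value, though with earlier results of these data known. They are *TNFSF10* (TRAIL), *TNFRSF10A* (DR4), *TNFRSF10B* (DR5), *TNFRSF10C* (DcR1), *TNFRSF10D* (DcR2), *FAS*, *FADD*, *CASP8*, *CASP10* and *CFLAR* (FLIP). The samples are 2 groups of 2 from the U87MG line, an established line of human glioblastoma cells labelled wild type, and their RNA was sequenced. Control cells were left untreated, whereas the other cells received chaetocin, a fungal metabolite dissolved in DMSO, at 50 nM for 24 h. No vehicle group was analysed here, so chaetocin and its solvent cannot be told apart. Nothing in the labels says that the samples of a group came from separate cultures, and p-values then measure only the spread between these samples. In bulk RNA, fewer cells that express a gene and less of its RNA per cell cannot be told apart.

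TRAIL and FAS ligand are cytokines that can start apoptosis from the cell surface. TRAIL binds the death receptors DR4 and DR5, whose death domains recruit the adaptor FADD, and FADD in turn brings in the initiator caspases 8 and 10, which are activated by proximity. The decoy receptors DcR1 and DcR2 bind TRAIL without a working death domain, and FLIP resembles caspase 8 and competes for its place in the complex. In glioblastoma cells, resistance to TRAIL is common, and the study asked whether chaetocin sensitizes such cells to it. The counts address whether 24 h of chaetocin alone altered the transcripts of this pathway.

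Promoter windows from 250 bases before to 50 bases after a gene start were taken from RefSeq on GRCh38.p14 for the 5 members that matched, with 12 windows in all since some members have several starts. Stretches of 30 bases from *CFLAR* and *FAS* are shown because they hold the antioxidant response element, the motif of the stress-responsive factor NRF2, printed in capitals. It was searched as TGACNNNGC on either strand.
*CFLAR*, antioxidant response element, chr2:201118535-201118564, plus strand: ataagccgttTGACCACGCatggagaattt
*FAS*, antioxidant response element, chr10:88990708-88990737, plus strand: ggtttacgagTGACTTGGCtggagcctcag
The motif begins 171 bases before a gene start in *CFLAR* and 80 bases before one in *FAS*. A match is a description of the letters and not a site shown to be bound. The antioxidant response element was found in 3 of the 12 member windows and in 13.3% of all 35116 windows of that length. The AP-1 motif TGANTCA lay in 5 member windows, of *CASP8*, *CFLAR*, *FADD* and *FAS*, against 7.71% of all windows. The GC box GGGCGG lay in 7 windows of those same 4 genes, against 45% of all windows. The E-box CACGTG was in none of the 12 windows and in 7.26% of all windows. Because the 12 windows come from only 5 genes, they do not count as independent, and no difference from all windows was tested.

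Transcripts of all 10 genes were detected in every sample, at levels that spanned more than 2 orders of magnitude. Levels are compared between genes as CPM (read counts scaled to a common library size with TMM factors) per kb of merged exon. In control cells, *TNFRSF10B* had the highest level with a mean of 53.1 CPM per kb, above 95.1% of the tested genes. *TNFRSF10D* came next with 43.1 CPM per kb, and the sample values of these receptors overlapped. *FADD* followed at 8.98 and *FAS* at 8.34 CPM per kb, which overlapped with each other, and *FADD* was 4.8-fold below *TNFRSF10D*. *CASP8* had a mean of 4.01, *TNFRSF10C* of 3.43 and *CFLAR* of 3.30 CPM per kb, and neighbours in this order overlapped. *CASP10*, the other initiator caspase, was 3.57-fold below *CFLAR* with 0.924 CPM per kb and did not overlap with it. *TNFRSF10A* with 0.262 and *TNFSF10* with 0.251 CPM per kb were lowest, above only 13.7% and 13.3% of the tested genes, and overlapped with each other. In chaetocin-treated cells the order differed in 2 places. *TNFRSF10D* at 67.4 CPM per kb stood above *TNFRSF10B* at 46.7, while *TNFRSF10C* at 3.51 passed *CASP8* at 3.27. The length chosen per gene changed the middle and the bottom of the order. When scaled by the longest principal transcript, a setting added after seeing the data, *CASP8* had the rank 3 in control cells with 17.8 and *CFLAR* the rank 6 with 5.06 CPM per kb, while *TNFRSF10B* and *TNFRSF10D* kept the ranks 1 and 2 and *TNFSF10* with 0.446 stood above *TNFRSF10A* with 0.285 CPM per kb.

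**Figure D1:**
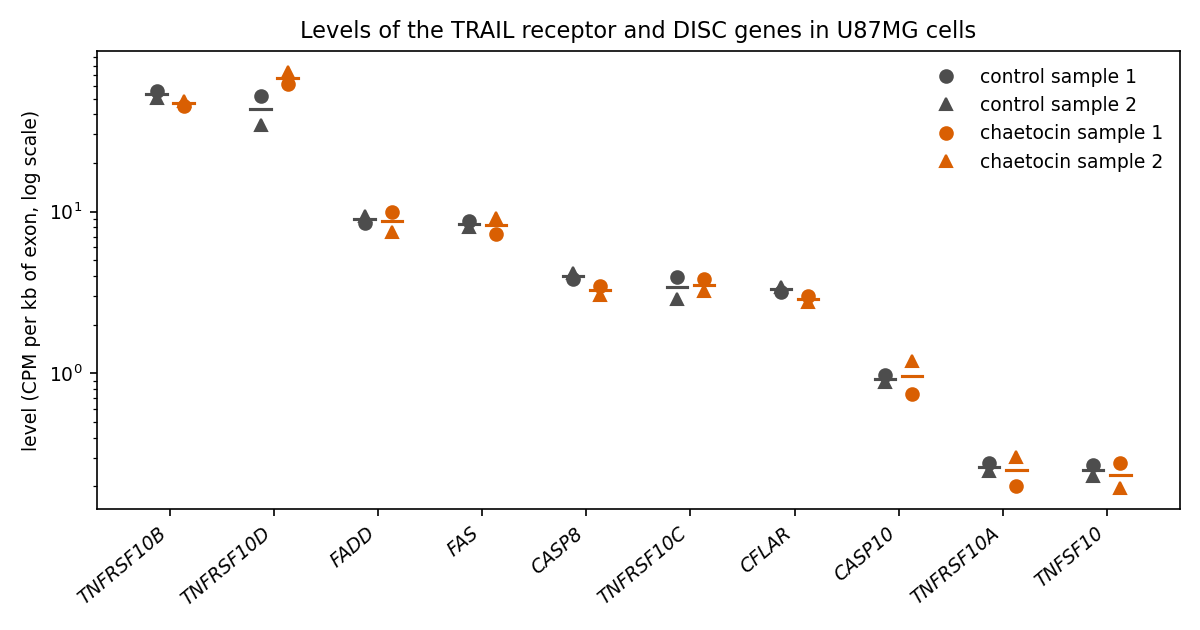
Levels of the 10 genes in each sample, in CPM per kb of merged exon on a log axis, with genes ordered by their control mean (horizontal lines are group means, n = 2 samples each). *TNFRSF10B* and *TNFRSF10D* lie far above the rest, *TNFRSF10A* and *TNFSF10* lie lowest, and *TNFRSF10D* has both chaetocin samples above both control samples.

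None of the 10 genes passed the test between chaetocin and control in edgeR's quasi-likelihood fit at an adjusted p under 0.05, and DESeq2 called 0 as well. Across the 16416 genes tested, 1.85% were called by edgeR, with 182 higher (1.11%) and 122 lower (0.743%). With upper-quartile size factors those counts were 246 and 88. DESeq2 called 5.28% of genes, 2.35% higher and 2.93% lower. At an unadjusted p under 0.05, 1 member was found, *TNFRSF10D*, against 20.3% of all tested genes (10.9% higher, 9.43% lower). Fits that dropped 1 sample each gave estimates of 0.371 to 0.955 for *TNFRSF10D* and of -0.387 to -0.213 for *CASP8*. Each such fit leaves 1 sample in an arm, which is assumed to vary like the 2 samples of the other group. Of the 10 log2 fold changes, 3 were above 0 and 7 below, with a median of -0.03 against 0.01 over all tested genes. Chaetocin samples lay wholly above control samples in 1 member and wholly below in 3, *TNFRSF10B*, *CASP8* and *CFLAR*. Groups of tested genes failed to overlap in this way in 52.7% of cases, 26.7% higher and 26% lower. All 10 members passed the filter on low counts.

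**Figure D2:**
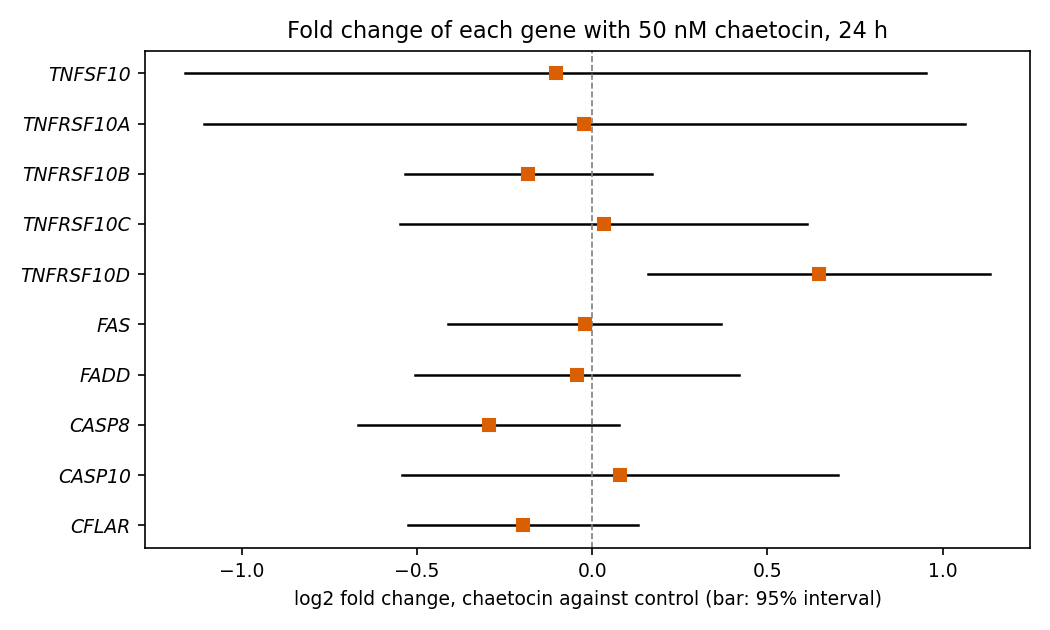
Log2 fold change of each gene between chaetocin and control (squares) with its 95% interval from the edgeR fit (bars). The interval of *TNFRSF10D* runs from 0.16 to 1.13 and leaves out 0 before adjustment, whereas those of the other 9 genes include 0.

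The ligand was at the edge of what these libraries measure. *TNFSF10*, ENSG00000121858, spans 172505508 to 172523507 of chromosome 3 (minus strand, GRCh38) and had 23 reads in each control sample and 21 and 24 reads in the chaetocin samples. An exact Poisson 95% interval for 23 reads runs from 14.6 to 34.5, for counting error only. Scaled to library size, these were 0.942 and 0.800 CPM in control and 0.964 and 0.675 CPM in chaetocin samples, above the 3-read floor of 0.0843 to 0.138 CPM. The groups overlapped, and the log2 fold change was -0.10 with an SE of 0.46 (adjusted p = 0.928). Its 95% interval of -1.16 to 0.95 leaves room for a difference of about 2-fold in either direction at this depth.

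The death receptors of TRAIL differed from each other in abundance far more than either differed between groups. *TNFRSF10B*, ENSG00000120889, is the DR5 gene, at 23020133 to 23069179 on the minus strand of chromosome 8. It measured 288 and 260 CPM in control and 233 and 249 CPM in chaetocin samples. Both chaetocin values were below both control values, by less than the test could separate. The log2 fold change was -0.18 (SE 0.15, 95% interval -0.53 to 0.17, adjusted p = 0.549), and the interval as a fold runs from 0.69 to 1.13. *TNFRSF10A*, ENSG00000104689, the DR4 gene at 23190452 to 23225126 on the minus strand of the same chromosome, had 20 and 21 reads in control and 13 and 32 reads in chaetocin samples. The chaetocin samples enclosed the control samples, with 0.597 and 0.899 CPM against 0.819 and 0.730 CPM. Its log2 fold change of -0.02 (SE 0.47, adjusted p = 0.985) came with an interval from -1.11 to 1.06, and it turned positive with upper-quartile size factors (0.06). Of the exon bases of *TNFRSF10A*, 16.6% are shared with transcripts on the other strand, including *TNFRSF10A-AS1*, and without a stated strand setting their reads cannot be told apart.

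*FAS*, ENSG00000026103, the receptor of FAS ligand at 88990582 to 89015785 of chromosome 10 (plus strand), was moderately expressed. It measured 37.0 and 34.0 CPM in control and 30.9 and 38.9 CPM in chaetocin samples, with 1 chaetocin sample below and 1 above the controls. The log2 fold change was -0.02 (SE 0.17, 95% interval -0.41 to 0.37, adjusted p = 0.961), and it was 0.06 with upper-quartile size factors. The gene overlaps *ACTA2* on the other strand over 8.93% of its exon bases.

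The decoy receptors gave the one member with an unadjusted p under 0.05. *TNFRSF10D*, ENSG00000173530, encodes DcR2, which has a shortened death domain, and lies at 23135588 to 23164030 on the minus strand of chromosome 8. Control samples measured 183 and 122 CPM and chaetocin samples 217 and 260 CPM, with all chaetocin values above all control values. Group means were 152 ± 43.3 CPM in control and 238 ± 29.95 CPM in chaetocin (SD, n = 2 each). The log2 fold change was 0.65 (SE 0.21, 95% interval 0.16 to 1.13), a 1.56-fold difference with an interval of 1.12 to 2.19. With an unadjusted p of 0.0156 it ranked 1773rd of the tested genes, and the adjusted p of 0.144 did not pass. The control samples themselves differed by 0.59 on the log2 scale, a wider gap than in 85.3% of tested genes. Without control sample 2 the log2 fold change was 0.37, and without control sample 1 it was 0.95, neither passing. Without a filter on low counts *TNFRSF10D* passed with an adjusted p of 0.0121 from edgeR, where 4.88% of genes were called, 2.48% higher and 2.39% lower.

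*TNFRSF10C*, ENSG00000173535, encodes DcR1, which is anchored to the membrane by a lipid and has no intracellular part. It lies at 23102590 to 23117437 on the plus strand of chromosome 8. It measured 7.41 and 5.39 CPM in control and 7.11 and 5.99 CPM in chaetocin samples, and the groups overlapped. Its log2 fold change was 0.03 (SE 0.25, 95% interval -0.55 to 0.61, adjusted p = 0.959). A share of 39.3% of its exon bases is also annotated to other genes on the same strand, so its counts depend on how such reads were assigned. The 4 TRAIL receptor genes arose by duplication and lie side by side. Over windows of 50 bases, the read length, no member shared an exact window with another member in GENCODE v29 transcripts. The share of windows found exactly in any other gene was 0.831% for *TNFRSF10D*, 1.35% for *TNFRSF10B*, 12.4% for *TNFRSF10A* and 35.4% for *TNFRSF10C*.

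The balance of receptors was then read within each sample, where library size cancels out. Death receptors over decoy receptors, as the summed reads per kb of *TNFRSF10A* and *TNFRSF10B* over those of *TNFRSF10C* and *TNFRSF10D*, gave 1.01 and 1.36 in control and 0.696 and 0.635 in chaetocin samples. The ratio was thus above 1 in both control samples and below 1 in both chaetocin samples, a log2 difference of -0.81 beside a within-group SD of 0.23. Counted in reads and not per length, the ratio was 1.51 and 2.05 in control and 1.04 and 0.942 in chaetocin samples, so its place relative to 1 depends on the scale while the order of the groups does not. *TNFRSF10D* over *TNFRSF10B*, which make up nearly all of these reads, was 0.928 and 0.684 in control and 1.36 and 1.52 in chaetocin samples per kb. In reads it was 0.636 and 0.469 against 0.933 and 1.04. This log2 difference of 0.85 (within-group SD 0.23) combines the higher *TNFRSF10D* values with the lower *TNFRSF10B* values, and ranged from 0.63 to 1.07 when each sample was left out in turn. Ratios are given as a description, with no test. The last ratio was chosen after its values were seen.

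**Figure D3:**
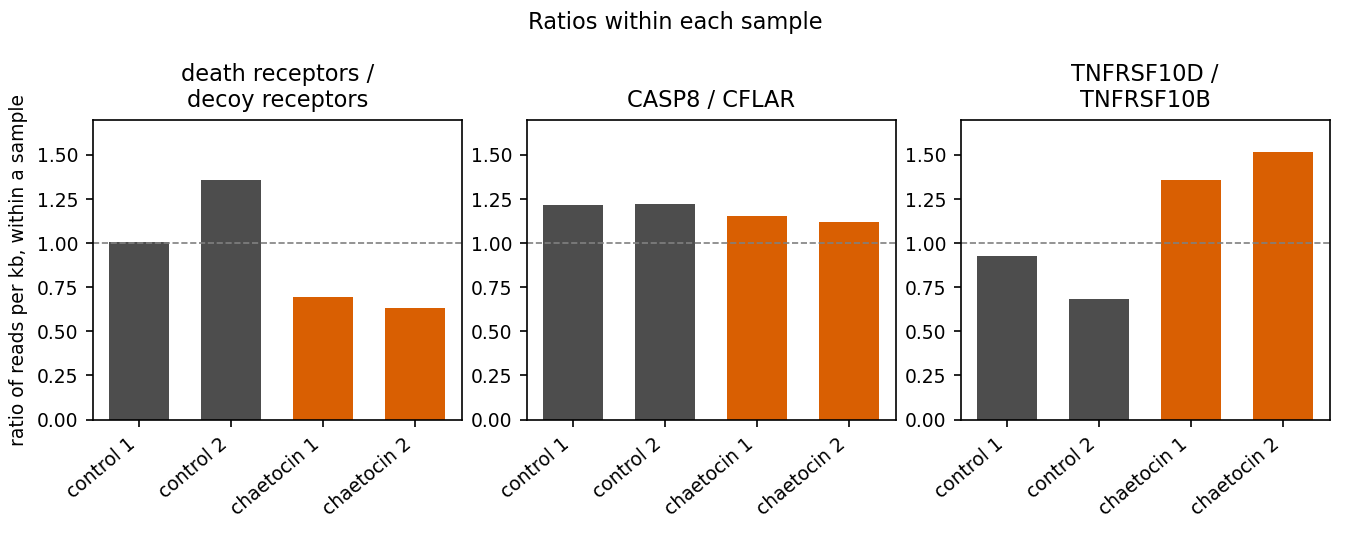
Ratios of reads per kb within each sample, as bars from 0 for the 2 control and 2 chaetocin samples, with a dashed line at 1. Death over decoy receptors lies between 1.01 and 1.36 in control and between 0.635 and 0.696 in chaetocin samples, *CASP8* over *CFLAR*, per kb of merged exon, lies between 1.12 and 1.22, and *TNFRSF10D* over *TNFRSF10B*, per kb, is between 0.684 and 0.928 in control and between 1.36 and 1.52 in chaetocin samples.

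*FADD*, the adaptor that joins the receptors to the caspases, is ENSG00000168040, at 70203163 to 70207390 of chromosome 11 (plus strand). It measured 15.7 and 17.4 CPM in control and 18.4 and 13.8 CPM in chaetocin samples. The chaetocin samples lay on either side of the control samples, with a log2 fold change of -0.04 (SE 0.20, 95% interval -0.51 to 0.42, adjusted p = 0.931), which was 0.03 with upper-quartile size factors. A transcript on the other strand, *AP000879.1*, covers 54.9% of the exon bases of *FADD*, and reads of the pair cannot be told apart without strand.

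The initiator caspases and their inhibitor lie next to each other on the plus strand of chromosome 2, in the order *CFLAR*, *CASP10* and *CASP8*. *CASP8*, ENSG00000064012, from 201233443 to 201287711, measured 27.9 and 30.2 CPM in control and 25.2 and 22.2 CPM in chaetocin samples. Both chaetocin samples were below both control samples. The log2 fold change of -0.30 (SE 0.16, 95% interval -0.67 to 0.08, unadjusted p = 0.104, adjusted p = 0.346) did not pass, and its interval as a fold runs from 0.63 to 1.05. *CASP10*, ENSG00000003400, from 201182881 to 201229406, measured 7.37 and 6.68 CPM in control and 5.65 and 9.08 CPM in chaetocin samples. Its chaetocin samples enclosed the controls and differed by 0.69 on the log2 scale, more than in 83.2% of tested genes. With a log2 fold change of 0.08 (SE 0.27, 95% interval -0.54 to 0.70, adjusted p = 0.906), no difference could be shown.

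*CFLAR*, ENSG00000003402, from 201116104 to 201176687, measured 71.6 and 77.0 CPM in control and 67.9 and 61.7 CPM in chaetocin samples. As for *CASP8*, both chaetocin samples were below both controls, and the log2 fold change of -0.20 (SE 0.14, 95% interval -0.53 to 0.13, adjusted p = 0.480) did not pass. Counts per gene do not separate the long and short FLIP proteins, which are made from different transcripts. Of the exon bases of *CFLAR*, 12% are shared with other genes on either strand and 1.98% on the same strand. Of its windows of 50 bases, 14.1% occur exactly in other genes. *CASP8* over *CFLAR* in reads per kb was 1.21 and 1.22 in control and 1.16 and 1.12 in chaetocin samples. This was a log2 difference of -0.10 with a within-group SD of 0.02. That SD comes from 2 samples per group and can understate even counting error. For the 549 *CASP8* reads of chaetocin sample 1, an exact Poisson 95% interval runs from 504 to 597. In reads the ratio was 0.390 and 0.392 against 0.371 and 0.359, and per kb of principal transcript 3.51 and 3.53 against 3.34 and 3.24. The size of the ratio thus depends on the length used, while the log2 difference was -0.10 on each scale. The chaetocin samples lay below the control samples.

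Neighbouring genes were read to place the members in their chromosomal surroundings. Around *CFLAR*, *CASP10* and *CASP8*, all 9 neighbours were tested, 0 were called and 0 had an unadjusted p under 0.05, with a median log2 fold change of -0.03. Those with the smallest p were *FLACC1* at -1.12 (SE 0.51, adjusted p = 0.260), *TRAK2* at -0.33 (adjusted p = 0.363) and *PPIL3* at 0.23 (adjusted p = 0.477). Around the TRAIL receptors, 8 of 10 listed neighbours were tested and 0 were called, with 1 higher and 1 lower at an unadjusted p under 0.05 and a median of -0.19. *LOXL2*, a lysyl oxidase of the extracellular matrix, measured 668 and 416 CPM in control and 368 and 213 CPM in chaetocin samples (log2 fold change -0.90, SE 0.30, adjusted p = 0.153). *EGR3*, an immediate early transcription factor, had a log2 fold change of 1.496 (SE 0.58, adjusted p = 0.204) at levels of 0.246 to 2.11 CPM. *ENTPD4* was at -0.32 (adjusted p = 0.255). Within the receptor cluster, *TNFRSF10D* had an estimate of 0.65 while the adjacent *TNFRSF10C* and *TNFRSF10A* were at 0.03 and -0.02, and whether they differ from each other was not tested.

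**Figure D4:**
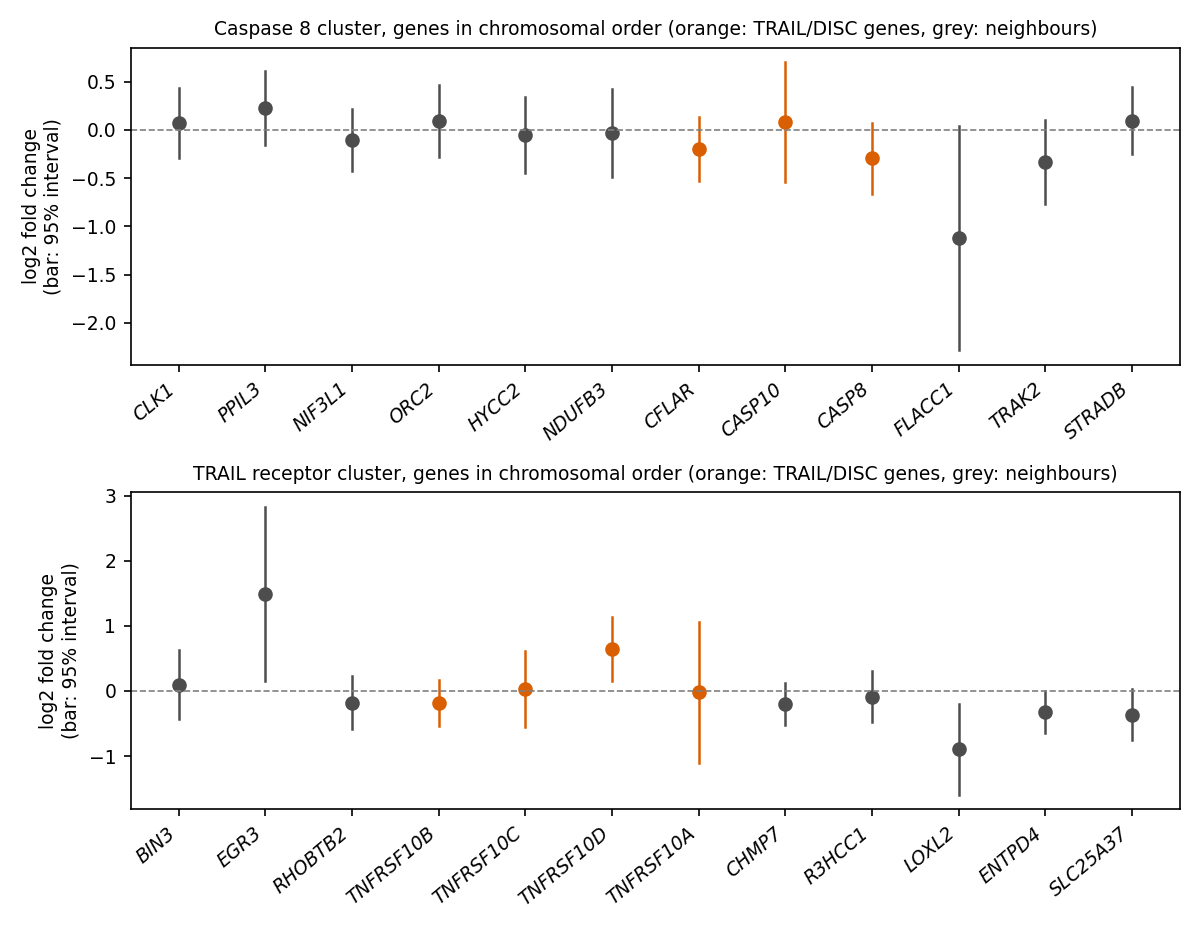
Log2 fold change with 95% interval of tested genes in chromosomal order around the caspase 8 cluster (top) and the TRAIL receptor cluster (bottom), with the members in orange and their neighbours in grey. Of the members, only *TNFRSF10D* has an interval that leaves out 0, and of the neighbours *EGR3* and *LOXL2* do, before adjustment.

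Other genes of the pathway were described from 4 lists of 65 genes, of which 57 were tested. None was called by edgeR, against 1.85% of all tested genes, and 6 were higher and 12 lower at an unadjusted p under 0.05, where 10.9% and 9.43% of all tested genes were. DESeq2 called 2 of them higher, *XIAP* among them, and 2 lower, *MCL1* and *CYLD*, against 5.28% of all genes in that fit. In other edgeR fits the counts differed. Without a filter on low counts 3 pathway genes were called higher and 8 lower, where 2.48% and 2.39% of all genes were. When either chaetocin sample was left out, calls grew both among the pathway genes and over all genes. The spread in those fits was taken from the control samples alone. Estimates were above 0 in 26 and below 0 in 31 genes, and their median was -0.03 against 0.01 over all tested genes.

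Among other death ligands and receptors, 6 of 12 genes were tested and all 6 estimates were below 0, with a median of -0.51 and 4 at an unadjusted p under 0.05, where 9.43% of all tested genes were lower. *TNFRSF11B*, the soluble receptor osteoprotegerin that can also bind TRAIL, measured 6.35 and 6.88 CPM in control and 3.53 and 3.37 CPM in chaetocin samples (log2 fold change -0.94, SE 0.24, adjusted p = 0.0831). *TNFRSF21*, the death receptor DR6, was at -0.52 (SE 0.16, adjusted p = 0.130). *TNFRSF1A*, the main TNF receptor, was at -0.50 (SE 0.16, adjusted p = 0.141). No read was counted in any sample for *FASLG*, the ligand of FAS, or for *TNFRSF6B*, a soluble decoy for it. For counting error only, this allows up to the 3-read floor. How reads shared between genes were assigned is not known.

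Of partners and modulators of the complex, 25 of 27 genes were tested, with 2 higher and 3 lower at an unadjusted p under 0.05 and a median of -0.01. *XIAP*, an inhibitor of caspases, measured 91.3 and 104 CPM in control and 146 and 161 CPM in chaetocin samples (log2 fold change 0.66, SE 0.15, adjusted p = 0.0655). *CYLD*, a deubiquitinase that acts on RIPK1, measured 221 and 251 CPM in control and 152 and 151 CPM in chaetocin samples (log2 fold change -0.64, SE 0.15, adjusted p = 0.0692). *TRAF1*, an adaptor of TNF receptors, was at 0.51 (SE 0.20, adjusted p = 0.204). *RIPK3*, the kinase of necroptosis, had 0 reads in all 4 samples.

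Downstream of caspase 8, all 14 genes were tested, with 2 higher and 3 lower at an unadjusted p under 0.05 and a median of 0.11. *BID*, which caspase 8 cleaves to engage mitochondria, measured 67.3 and 52.6 CPM in control and 44.4 and 37.2 CPM in chaetocin samples (log2 fold change -0.56, SE 0.18, adjusted p = 0.136). *MCL1*, an anti-apoptotic BCL2 relative, measured 614 and 653 CPM in control and 476 and 338 CPM in chaetocin samples (log2 fold change -0.64, SE 0.20, adjusted p = 0.135).

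Of the 12 genes listed as regulators of TRAIL receptor transcription, mostly transcription factors, all were tested, with 2 higher and 2 lower at an unadjusted p under 0.05 and a median of -0.04. One of the 2 lower was *TRIB3*, a pseudokinase and no transcription factor, at -0.91. *IRF1*, an interferon-responsive factor, was at 0.71 (SE 0.20, adjusted p = 0.106). *MYC* was at -0.56 (SE 0.16, adjusted p = 0.109).

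**Figure D5:**
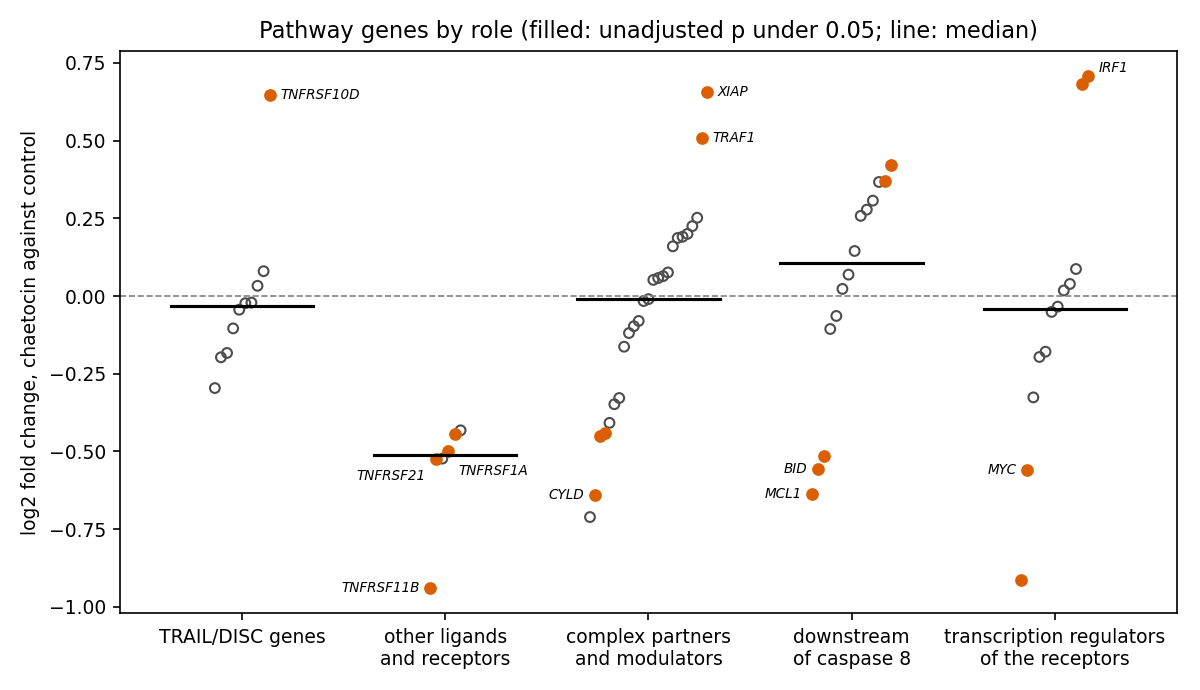
Log2 fold change of the 10 members and of the tested genes in the 4 pathway lists, as points sorted within each list, with filled points for an unadjusted p under 0.05 and a line at each median. The medians lie at -0.03 for the members, -0.51 for other ligands and receptors, -0.01 for complex partners, 0.11 downstream of caspase 8 and -0.04 for transcription regulators, and genes among the 3 of smallest p in each list are named.

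The deposited counts summed to between 21241984 and 32590479 reads per sample, and the biological coefficient of variation was 16.8%. Markers were read to check the labelled cell type. Of 10 astroglial and glioma markers, *VIM* and *CD44* were abundant, *GFAP* was low at 0.946 CPM in control and 0.468 CPM in chaetocin samples (10 to 25 reads per sample), *AQP4* had 0 reads in all samples and *S100B* had 0 reads in both control samples. Their summed level was 5207 to 5896 CPM in control and 2196 to 3430 CPM in chaetocin samples, most of it from *VIM* and *CD44*. Of the 10 markers, 7 were lower in both chaetocin samples. Another 2, *S100B* and *SOX2*, were higher in both, with 0 reads in control and 2 to 5 reads in chaetocin samples. Only 7 markers were tested, and all 7 were lower in both chaetocin samples, as were 26% of all tested genes. *CHI3L1*, a secreted glycoprotein of gliomas, was the 1 marker of this list called, with a log2 fold change of -1.28 (adjusted p = 0.0266). Of 25 leukocyte and blood markers, 8 had 0 reads in all samples and 6 were higher in both chaetocin samples. Their sum was 2.23 to 2.25 CPM in control and 5.69 to 6.58 CPM in chaetocin samples. Only 4 of the 25 were tested, and all 4 were higher in both chaetocin samples, as were 26.7% of all tested genes. *PTPRC*, the pan-leukocyte marker CD45, had 0 and 1 reads in control and 15 and 27 reads in chaetocin samples, and *ITGAM* had 0 and 1 reads against 24 and 29. Both were called (adjusted p = 0.0412 and adjusted p = 0.0341), but they passed the filter on low counts only through the chaetocin samples. Of T cell markers, *CD3E* had 0 reads in all samples, *CD3G* had 3 to 9 reads, and *CD2* had 27 and 35 reads in control and 40 and 96 reads in chaetocin samples (adjusted p = 0.191). Of B cell markers, *MS4A1* had 0 reads in all samples and *CD79A* had 2 and 0 reads in control and 11 and 10 reads in chaetocin samples. Of myeloid markers other than *ITGAM*, *TYROBP* and *FCGR3B* had 0 reads in all samples, *SPI1*, *S100A8* and *MPO* had 0 to 2 reads, and *CSF3R* had 3 and 5 reads in control and 5 in each chaetocin sample. *CD14* had 7 and 11 reads in control and 10 and 41 reads in chaetocin samples. The globin genes had 0 reads in all samples. The part of either marker list in the values above was not tested.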

How the data were processed

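Gene counts of 4 U87MG samples were used, 2 left untreated and 2 given chaetocin. Per the labels, polyadenylated RNA was sequenced, and the study's methods give a length of 50 bp for the single-end reads. The authors deposited raw counts of reads per gene, 1 table per sample, as whole numbers without normalization. The submitters' processing notes list cutadapt, TopHat2, TopHat, SAMtools and GRCh37. The counting tool, its strand setting and the annotation are not given in the sources used here, and the study's methods name DESeq2.

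From the counts, edgeR 4.0.16 (R 4.3.3) was run with filterByExpr (minimum count 10), TMM factors of 0.942 to 1.09 and a robust quasi-likelihood fit without a block. P-values were adjusted by the Benjamini-Hochberg method over all 16416 tested genes, with a threshold of 0.05, and SEs were derived from the fold change and the F statistic. The fit was tested on simulated data. CPM were scaled by TMM. Positions, exon lengths and symbols came from GENCODE v29 on GRCh38, which holds 52338 of the 57905 identifiers. The floor of 3 reads and the Poisson intervals cover counting error only, since PCR copies of a molecule are counted as separate reads.

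Alternatives were other size factors, other filters, DESeq2 1.42.0, a replicate block and leaving out each sample. All 10 members were named, and from each other list every called gene or else the 3 of smallest p, of which some are not reported here, nor is 1 of the 5 motifs searched. The members and lists were chosen with earlier results of these data known.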

Additional observations from a re-analysis of the deposited data

How the results depend on the processing

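In all 10 alternatives run for each gene, *TNFRSF10B*, *CASP8* and *CFLAR* kept an estimate below 0 and *TNFRSF10D* kept one above 0. Samples of the 2 groups share only the numbers 1 and 2. Across genes, the differences between samples 1 and 2 of each group had a correlation of 0.123. Whether samples of the same number form pairs was not tested. A fit with the replicate block called 1036 genes higher (6.31%) and 1053 lower (6.41%), *TNFRSF10D* was the 1 member called (log2 fold change 0.67, adjusted p = 0.0129, with 12.7% of all genes called), and 3 pathway genes were higher and 11 lower. Prior degrees of freedom were 41.5 with the block and 6.29 without. Without a filter on low counts, 787 genes were higher and 759 lower, with 1 member higher (*TNFRSF10D*) and 3 pathway genes higher and 8 lower. With at least 10 counts in every sample, 114 genes were higher and 80 lower, and the log2 fold changes of *TNFRSF10A* and *FAS* turned to 0.009 and 0.001. DESeq2 gave 385 higher and 481 lower, with 2 pathway genes higher and 2 lower, and an adjusted p of 0.0815 for *TNFRSF10D*. Upper-quartile size factors, which moved the median of all genes from 0.01 to 0.09, gave 1 pathway gene higher and estimates of 0.055 for *TNFRSF10A*, 0.056 for *FAS*, 0.032 for *FADD*, -0.11 for *TNFRSF10B* and -0.12 for *CFLAR*. When each sample was left out in turn, which leaves 1 sample in an arm and takes the spread from the other group, 215 to 1332 genes were higher and 97 to 1673 lower, 0 to 2 members had an unadjusted p under 0.05, and 0 to 4 pathway genes were higher and 0 to 13 lower. The log2 fold change then ranged from -0.36 to 0.14 for *TNFSF10*, -0.38 to 0.22 for *TNFRSF10A*, -0.19 to 0.27 for *TNFRSF10C*, -0.21 to 0.14 for *FAS*, -0.26 to 0.14 for *FADD*, -0.32 to 0.38 for *CASP10*, -0.27 to -0.12 for *TNFRSF10B*, -0.39 to -0.21 for *CASP8*, -0.26 to -0.14 for *CFLAR* and 0.37 to 0.95 for *TNFRSF10D*, and the adjusted p of *TNFRSF10D* from 0.0873 to 0.754. The causes of these shifts were not tested. Depth limits *TNFSF10*, with 21 to 24 reads per sample, and *TNFRSF10A*, with 13 to 32.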

Other observations

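*FAF1*, which encodes a FAS-associated factor and was listed among the partners of the complex, had 0 reads in all 4 samples, although its product is widely expressed. Its neighbours on chromosome 1 were then read, a choice made after this value was seen. *ELAVL4* and *DMRTA2* on one side and *CDKN2C*, a cyclin-dependent kinase inhibitor, and *C1orf185* on the other also had 0 reads in all 4 samples. Beyond them, *RNF11* had 4988 and 5930 reads in control and 4813 and 8634 reads in chaetocin samples, *TTC39A* had 44 to 140 reads per sample, *BEND5* had 1 to 17 and *AGBL4* had 0 to 4.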
